A study of Mus musculus with 8 samples.

Results

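Macrophage genes were followed through splenic B cell isolates of 3 transgenic genotypes. The 10 genes were Csf1r, Adgre1, Cd68, Lyz2, Mrc1, Vcam1, Cd5l and the complement C1q chains C1qa, C1qb and C1qc. They were chosen by symbol, and all 10 were among the 24902 symbols of the count matrix. Bulk RNA-seq covered 4 mice with Eµ-PRMT5, 3 with Eµ-PRMT5/TCL1 and 1 with Eµ-TCL1, all carrying a B cell transgene. All are labelled C57BL/6N, whereas the methods give C57BL/6J for the Eµ-TCL1 background, and WT mice were not analysed here. Eµ-PRMT5 mice express human PRMT5, an arginine methyltransferase, from an immunoglobulin promoter and the Eµ enhancer, Eµ-TCL1 mice express human TCL1 in B cells and are a model of CLL, and Eµ-PRMT5/TCL1 mice carry both transgenes. The mice were taken at early removal criteria (ERC), that is, when diseased, and their ages are not given in the labels. B cells were enriched from spleen suspensions with a kit that removes other cells, and no sort followed in the description of these libraries. The label of Eµ-PRMT5 mouse 2 carries the identifier that the methods give to a founder. By the mouse identifiers, Eµ-PRMT5 mouse 3 had large anaplastic lymphocytes with histiocytes in its tissues and mouse 4 had sheets of small lymphocytes.

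Macrophages arise and survive under signals through the CSF1 receptor, encoded by Csf1r, and the spleen holds several kinds of them. Red pulp macrophages take up aged red cells, recycle their iron and carry F4/80 (Adgre1) and Vcam1 on their surface. C1q is the recognition molecule of the classical complement pathway, built from the A, B and C chains, and unlike most complement proteins it is made mainly by macrophages and dendritic cells rather than by the liver. None of the 10 genes is a standard marker of B cells, and in a bulk sample fewer cells of a type and less RNA per cell cannot be told apart.

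The C1q chains lie side by side on chromosome 4 of GRCm38, in the order C1qb, C1qc and C1qa, all on the minus strand, within 18675 bases from 136880129 to 136898803. Promoters, taken as 250 bases before to 50 bases after the start of transcription, were read from RefSeq (GRCm38.p6) for 6 of the 10 genes. The sequences were searched on both strands for GAGGAA and AGGAAGT, core letters bound by PU.1 and related ETS factors of myeloid cells, which share AGGAA and can overlap. These motifs were chosen with the sequences in view, so the shares of all promoters given below cannot show an excess in these genes. Promoters of Csf1r, Adgre1, Vcam1 and C1qa were not searched, so the counts below do not cover those genes. Of the 6 promoters, 5 held GAGGAA, 4 held AGGAAGT and all 6 held at least 1 of them, against 28.28%, 9.351% and 32.66% of the 32851 mouse promoters of the same length. Those of both C1q chains with an entry, and of Lyz2 and Cd68, are shown 5′ to 3′ because these genes peaked in different mice, with both motifs on either strand in capitals. They are C1qb at chr4:136886151-136886450, C1qc at chr4:136892865-136893164, Lyz2 at chr10:117282223-117282522 and Cd68 at chr11:69666121-69666420, all on the minus strand.
C1qb: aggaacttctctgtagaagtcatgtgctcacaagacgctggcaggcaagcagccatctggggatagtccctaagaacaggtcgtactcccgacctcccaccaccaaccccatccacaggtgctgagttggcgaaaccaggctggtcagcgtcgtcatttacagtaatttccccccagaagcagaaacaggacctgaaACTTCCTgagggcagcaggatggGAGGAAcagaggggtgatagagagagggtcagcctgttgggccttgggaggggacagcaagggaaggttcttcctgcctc
C1qc: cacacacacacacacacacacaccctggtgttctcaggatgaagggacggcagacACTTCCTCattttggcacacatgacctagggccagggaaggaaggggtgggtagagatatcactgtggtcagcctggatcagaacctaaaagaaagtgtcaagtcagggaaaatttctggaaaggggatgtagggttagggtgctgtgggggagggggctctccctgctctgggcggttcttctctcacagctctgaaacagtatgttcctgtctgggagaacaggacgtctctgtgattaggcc
Lyz2: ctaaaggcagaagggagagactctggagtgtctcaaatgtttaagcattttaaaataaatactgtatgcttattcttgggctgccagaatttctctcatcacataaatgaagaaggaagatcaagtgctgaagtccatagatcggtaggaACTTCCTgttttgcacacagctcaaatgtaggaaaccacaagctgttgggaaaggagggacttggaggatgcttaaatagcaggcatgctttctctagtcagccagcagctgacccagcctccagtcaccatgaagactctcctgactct
Cd68: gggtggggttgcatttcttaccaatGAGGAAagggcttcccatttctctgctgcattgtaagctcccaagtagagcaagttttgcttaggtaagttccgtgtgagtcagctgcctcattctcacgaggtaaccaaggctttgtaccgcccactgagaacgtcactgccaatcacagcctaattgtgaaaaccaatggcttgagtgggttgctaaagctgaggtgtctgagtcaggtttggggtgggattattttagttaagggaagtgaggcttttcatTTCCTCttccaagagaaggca
C1qc held the joined form of both motifs, C1qb each of them apart, Lyz2 AGGAAGT alone and Cd68 GAGGAA at 2 places. A match of letters is a description of the window and no measure of binding.

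Reads on genes summed to between 3356297 (Eµ-TCL1) and 10252426 (Eµ-PRMT5 mouse 4) per mouse. Some cells of the matrix hold NA, which the main tests did not read as 0, and Eµ-PRMT5 mouse 1 has values for 16379 symbols against at least 20411 in each other mouse. Of the 10 genes, C1qb, C1qc, Cd5l and Mrc1 have no value in Eµ-PRMT5 mouse 1 and C1qa has none in mice 1 and 2, so 5 genes (Csf1r, Adgre1, Cd68, Lyz2 and Vcam1) had a value in all 8 libraries. These 5 passed the filter on low counts and were tested among 13173 genes. C1qb, C1qc, Cd5l and Mrc1 were tested among the 15140 genes that had a value in the other 7 libraries and passed the filter, a fit added after the data were seen, and C1qa was tested only with NA read as 0. B cell markers were high in every isolate, with a summed level between 2099 CPM (Eµ-PRMT5 mouse 4) and 8964 CPM (Eµ-PRMT5/TCL1 mouse 3). CPM values are read counts relative to the total of the library, after TMM scaling.

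Of the lineage receptors, Csf1r varied most between mice. Csf1r measured 17.5, 35.5, 99.4 and 178 CPM in Eµ-PRMT5 mice 1 to 4, 341, 110 and 63.2 CPM in Eµ-PRMT5/TCL1 mice 1 to 3, and 61.4 CPM in the Eµ-TCL1 mouse. Eµ-PRMT5/TCL1 mouse 1 stood highest, and the other mice of that genotype lay inside the Eµ-PRMT5 range. Adgre1, which encodes F4/80, had another order, with 19.7, 72.7, 15.0 and 17.5 CPM in Eµ-PRMT5 mice, then 52.3, 23.9 and 70.2 CPM in the 3 Eµ-PRMT5/TCL1 mice, with 13.0 CPM for Eµ-TCL1. Adgre1 was highest in mouse 2 of the first genotype and mouse 3 of the second, which had 35.5 and 63.2 CPM of Csf1r. Exons of Csf1r overlap those of Hmgxb3 on the opposite strand, and whether reads were counted by strand is not given in the sources used here.

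Cd68, a lysosomal membrane protein of phagocytes, measured 96.2, 75.7, 160 and 202 CPM in Eµ-PRMT5 mice, then 309, 302 and 141 CPM in the 3 Eµ-PRMT5/TCL1 mice, with 60.8 CPM for Eµ-TCL1. The Eµ-TCL1 mouse was the lowest of the 8, and Eµ-PRMT5/TCL1 mouse 3 overlapped the Eµ-PRMT5 mice. Lyz2, the lysozyme of macrophages, monocytes and neutrophils, measured 980, 897, 930 and 2865 CPM in Eµ-PRMT5 mice, then 6224, 2092 and 708 CPM in the 3 Eµ-PRMT5/TCL1 mice, with 901 CPM for Eµ-TCL1. Eµ-PRMT5/TCL1 mice held both the highest and the lowest value for Lyz2. Mrc1, the mannose receptor CD206, had no value in Eµ-PRMT5 mouse 1 and measured 3.48, 33.1 and 5.77 CPM in mice 2 to 4, 9.35, 8.29 and 33.2 CPM in the 3 Eµ-PRMT5/TCL1 mice, with 29.5 CPM for Eµ-TCL1. Each genotype had 1 mouse near 30 to 33 CPM for Mrc1, and it was the only 1 of the 10 genes for which the Eµ-TCL1 mouse lay among the 3 highest.

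Vcam1, an adhesion molecule of splenic macrophages and of stroma and endothelium, measured 9.94, 11.6, 38.3 and 30.7 CPM in Eµ-PRMT5 mice, then 33.8, 24.6 and 6.30 CPM in the 3 Eµ-PRMT5/TCL1 mice, with 19.5 CPM for Eµ-TCL1. The genotypes overlapped over nearly their whole ranges. Cd5l, a protein secreted by tissue macrophages, had no value in Eµ-PRMT5 mouse 1 and measured 0.633, 11.6 and 2.08 CPM in mice 2 to 4, 7.54, 12.4 and 2.15 CPM in the 3 Eµ-PRMT5/TCL1 mice, with 1.89 CPM for Eµ-TCL1. Eµ-PRMT5 mouse 3 was highest for Vcam1 and second highest for Cd5l and Mrc1. Exons of Vcam1 overlap those of Gm43109 on the opposite strand.

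**Figure D1:**
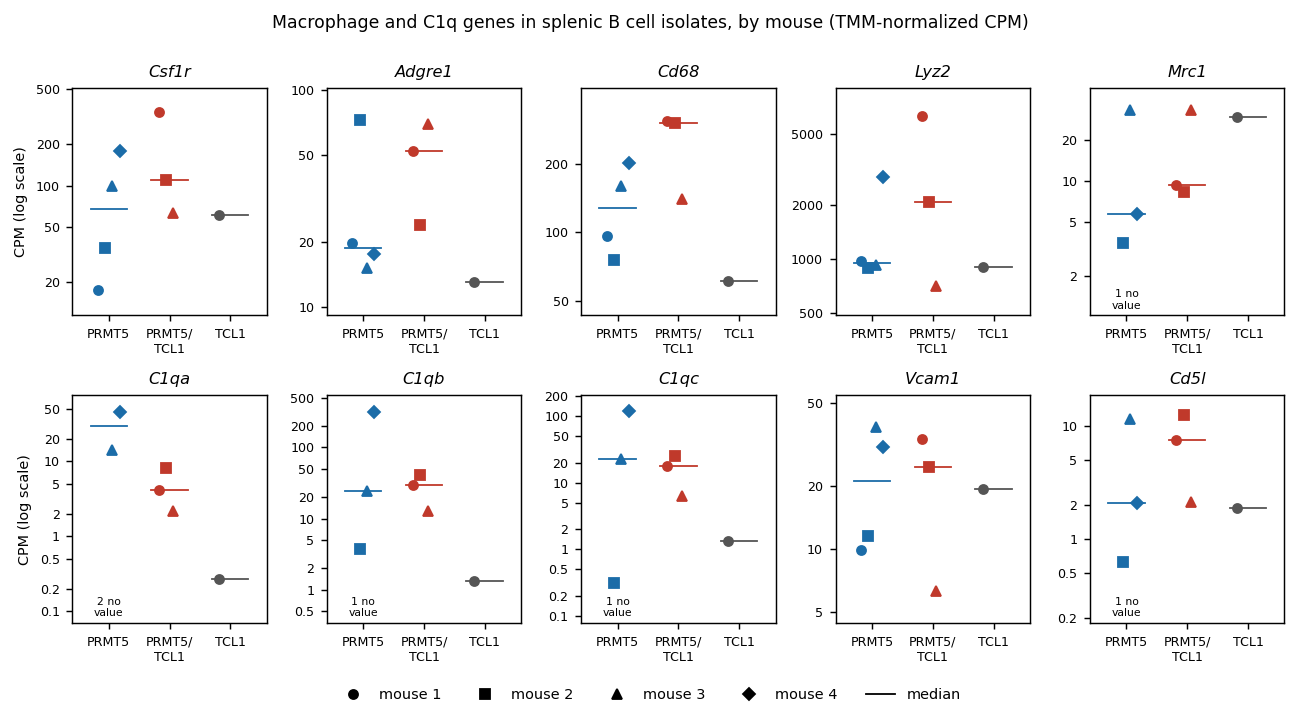
TMM-normalized CPM (log axis) of the 10 genes in each mouse, by genotype; symbols mark the mouse number and bars the median of the mice with a value. C1qa, C1qb and C1qc peak in Eµ-PRMT5 mouse 4, at 45.1, 316 and 118 CPM, whereas Csf1r, Cd68 and Lyz2 peak in Eµ-PRMT5/TCL1 mouse 1.

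The C1q chains had the widest spread of the 10 genes and peaked in a mouse of their own. C1qb measured 3.80, 24.6 and 316 CPM in Eµ-PRMT5 mice 2 to 4, 29.7, 40.5 and 12.6 CPM in the 3 Eµ-PRMT5/TCL1 mice, with 1.35 CPM for Eµ-TCL1. C1qc measured 0.317, 22.6 and 118 CPM in Eµ-PRMT5 mice 2 to 4, 17.7, 25.2 and 6.30 CPM in the 3 Eµ-PRMT5/TCL1 mice, with 1.35 CPM for Eµ-TCL1. C1qa measured 13.9 and 45.1 CPM in Eµ-PRMT5 mice 3 and 4, 4.10, 8.15 and 2.15 CPM in the 3 Eµ-PRMT5/TCL1 mice, with 0.270 CPM for Eµ-TCL1. All chains were thus highest in Eµ-PRMT5 mouse 4 and kept 1 order among the Eµ-PRMT5/TCL1 mice, with mouse 2 above mouse 1 above mouse 3.

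Depth limited the low end of these values. In the Eµ-TCL1 mouse C1qa rested on 1 count and C1qb and C1qc on 5 counts each, and C1qc in Eµ-PRMT5 mouse 2 rested on 2 counts. Against the counts pooled over the 3 Eµ-PRMT5/TCL1 mice, the level in the Eµ-TCL1 mouse was lower by a ratio of 18.1 for C1qa (95% exact Poisson interval, counting error only, 3.17 to 723), 20.6 for C1qb (8.78 to 63.7) and 12.3 for C1qc (5.20 to 38.0). These intervals compare libraries and hold no spread between mice. From Eµ-PRMT5 mouse 3 to mouse 4, the same kind of ratio was 3.24 for C1qa (2.47 to 4.32), 12.8 for C1qb (10.6 to 15.7) and 5.24 for C1qc (4.26 to 6.51). The interval for C1qb lay above those of the other chains. The intervals treat each read as a separate count. No molecular identifiers are described for these reads, so copies made in amplification cannot be told apart and the intervals can be too narrow.

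Per kb of exon, C1qb was the most abundant of the chains with a value in each of 7 mice. In the Eµ-TCL1 mouse this order was not resolved. There the ratio of C1qb to C1qc was 1.77 (95% exact interval 0.41 to 7.71), from 5 counts each. C1qb made up 66.7% ± 2.33 of the summed C1q level per kb in Eµ-PRMT5/TCL1 mice (SD, n = 3), against 21.5% ± 1.90 for C1qc and 11.8% ± 1.90 for C1qa. The ratio of C1qb to C1qa per kb was 6.92, 4.75 and 5.60 in Eµ-PRMT5/TCL1 mice 1 to 3 and 6.69 (95% exact interval 6.02 to 7.46) in Eµ-PRMT5 mouse 4. In Eµ-PRMT5 mouse 3 it was 1.69 (1.23 to 2.36), which lay below those 4 mice. There C1qa held 28.0% of the summed level, from 61 counts, and C1qb 47.5%, from 108 counts. The ratio of C1qb to C1qc was 1.94 (1.46 to 2.57) in mouse 3 and 4.73 (4.41 to 5.09) in mouse 4.

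**Figure D2:**
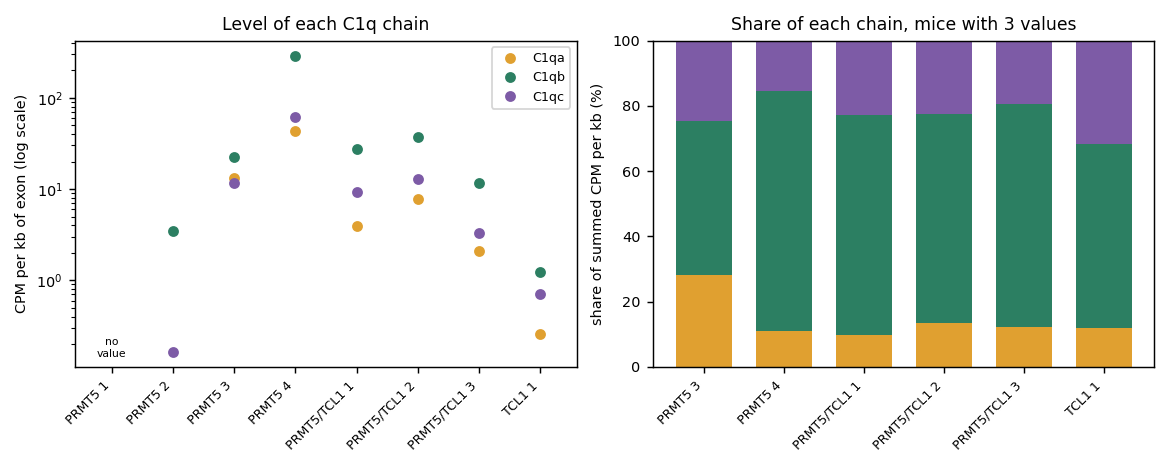
Left, CPM per kb of exon (log axis) of C1qa, C1qb and C1qc in each mouse, with no value in Eµ-PRMT5 mouse 1 and none for C1qa in mouse 2; right, share of each chain in their sum in the 6 mice with all 3 values. C1qb holds 66.7% on average in Eµ-PRMT5/TCL1 mice and 47.5% in Eµ-PRMT5 mouse 3, and the Eµ-TCL1 bar rests on 11 counts.

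Levels were set against each other per kb of exon. In Eµ-PRMT5/TCL1 mice Lyz2 led, with a mean level of 2286 ± 2181 CPM per kb (SD, n = 3), followed by Cd68 at 199 ± 75.7, Csf1r at 29.6 ± 25.7, C1qb at 25.3 ± 12.9 and Adgre1 at 15.1 ± 7.22. Lyz2 exceeded Cd68, and Cd68 exceeded Csf1r, in 3 of 3 mice, whereas Csf1r exceeded C1qb in 1 of 3 and C1qb exceeded Adgre1 in 2 of 3. C1qc, C1qa, Cd5l, Mrc1 and Vcam1 followed, from 8.49 ± 4.92 down to 2.43 ± 1.58 CPM per kb. Of these, C1qc exceeded C1qa, and C1qa exceeded Cd5l, in 3 of 3 mice, and the order of Cd5l, Mrc1 and Vcam1 varied between mice. In Eµ-PRMT5 mice Lyz2 again led in 4 of 4, at 1078 ± 733 CPM per kb, and Vcam1, Cd5l and Mrc1 were lowest by mean. In Eµ-PRMT5 mouse 4 alone, C1qb, at 290 CPM per kb, stood above Cd68, at 161 CPM per kb.

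The spread between the Eµ-PRMT5/TCL1 mice was wider for the 5 tested genes than for the median gene. The SD of log2 CPM over the Eµ-PRMT5/TCL1 mice was 1.57 for Lyz2, 1.25 for Vcam1 and 1.24 for Csf1r, against a median of 0.36 over the 13173 genes tested. These SDs ranked at percentiles 98.7, 96.8 and 96.7 of all genes, with Adgre1 at 87.6 and Cd68 at 79.5. Over the Eµ-PRMT5 mice the median SD was 0.66, and the genes ranked from percentile 48.8 for Cd68 through 64.2 for Lyz2, 75.6 for Vcam1 and 79.8 for Adgre1 to 94.0 for Csf1r, with an SD of 1.49. No mouse was highest for more than 3 of the 10 genes.

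The first comparison the genotypes allow is whether adding TCL1 to PRMT5 went with other levels of these genes. Means of the Eµ-PRMT5/TCL1 mice were above those of the Eµ-PRMT5 mice for 4 of the 5 genes tested in 8 libraries. Of all genes, 40.6% had a positive log2 fold change. The groups overlapped in each of the 5 genes, and none passed the threshold. Csf1r averaged 171 ± 149 CPM in Eµ-PRMT5/TCL1 mice (SD, n = 3) and 82.5 ± 72.5 CPM in Eµ-PRMT5 mice (n = 4), a log2 fold change of 1.05 (standard error 0.71). Lyz2 had a log2 fold change of 1.08 (0.67), Cd68 0.91 (0.42), Adgre1 0.64 (0.58) and Vcam1 -0.069 (0.63). The adjusted p was 1.00 for each, by edgeR's quasi-likelihood test with Benjamini-Hochberg adjustment over all genes, and the smallest unadjusted p was that of Cd68, at 0.0504.

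In that comparison 0 of the 5 genes passed an adjusted p under 0.05 with a fold change over 4, where 0% of the 13173 genes did, and 0 of 5 had an unadjusted p under 0.05, against 2.17% of all genes. DESeq2 called 0 of the 5 genes and 4 genes in all, which is 0.0304%. The median log2 fold change of the 5 genes was 0.91, beside -0.093 over all genes. For 0 of 5 genes did all Eµ-PRMT5/TCL1 mice lie above all Eµ-PRMT5 mice, against 1.35% of all genes, and for 0 of 5 did all lie below, against 1.59%. Without Eµ-PRMT5/TCL1 mouse 1 the log2 fold change was 0.064 for Csf1r and -0.019 for Lyz2, and without Eµ-PRMT5 mouse 4 it was 1.76 and 1.68, so single mice set the size of both. Adgre1 had 1.48 without Eµ-PRMT5 mouse 2. Without Eµ-PRMT5/TCL1 mouse 3 the groups no longer overlapped for Cd68, where 4.06% of all genes had the Eµ-PRMT5/TCL1 mice higher, nor without Eµ-PRMT5 mouse 2 for Adgre1, where 2.46% did, and neither gene passed the threshold then. The count at an unadjusted p under 0.05 by edgeR also hung on single mice. Without Eµ-PRMT5 mouse 4 it was 3 of 5 (Csf1r, Cd68 and Lyz2), against 5.78% of all genes, and without Eµ-PRMT5/TCL1 mouse 3 it was 2 of 5 (Cd68 and Lyz2), against 1.91%. Without Eµ-PRMT5 mouse 2 it was 1 of 5 (Adgre1), against 1.72%, and without mouse 3 it was 0 of 5, against 5.89%.

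The C1q chains pointed the other way in the fit of 7 libraries. C1qb averaged 27.6 ± 14.0 CPM in the 3 Eµ-PRMT5/TCL1 mice and 115 ± 174 CPM in Eµ-PRMT5 mice 2 to 4, or -2.13 on the log2 scale (standard error 1.07, edgeR adjusted p = 1.00). C1qc had a log2 fold change of -1.58 (1.10), Cd5l 0.75 (0.89) and Mrc1 0.38 (0.78), all with an adjusted p of 1.00. Without Eµ-PRMT5 mouse 4 the values became 1.06 for C1qb and 0.64 for C1qc, so that mouse set their direction. None of the 4 genes passed the threshold, where 0% of genes did, and none had an unadjusted p under 0.05, against 2.03% of genes. With NA read as 0, C1qa had a log2 fold change of -1.67 (1.65, edgeR adjusted p = 1.00), and both Eµ-PRMT5 mice with a value lay above all Eµ-PRMT5/TCL1 mice. The share of all genes that do so over 2 such mice was not computed.

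The second comparison sets the Eµ-PRMT5 mice against the single Eµ-TCL1 mouse, and it asks only whether that mouse lay outside the spread of the replicated groups. The Eµ-TCL1 mouse was below all Eµ-PRMT5 mice for Cd68 and Adgre1, 2 of the 5 genes tested, against 17.9% of all genes. Of the genes with missing values, C1qa and C1qb were also below every Eµ-PRMT5 mouse with a value, whereas C1qc, Mrc1 and Cd5l were not. That rests on 2 Eµ-PRMT5 mice for C1qa, which had 1 count in the Eµ-TCL1 mouse, and on 3 for C1qb. The share of all genes below so few mice was not computed, and the 17.9% covers 4 mice. The log2 fold change, Eµ-PRMT5 over Eµ-TCL1, was 1.27 (standard error 0.96) for Adgre1, 1.13 (0.67) for Cd68, 0.66 (1.04) for Lyz2, 0.43 (1.09) for Csf1r and 0.22 (0.94) for Vcam1. None passed the threshold (0% of all genes), with adjusted p between 0.709 and 0.962 from edgeR, and 0 of 5 had an unadjusted p under 0.05, against 6.78% of all genes. DESeq2 called 0 of the 5 and 18 genes in all, which is 0.137%. The median of the 5 genes was 0.66 and that of all genes 0.042.

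For the C1q chains that comparison gave the largest fold changes of the 10 genes. In 7 libraries the log2 fold change was 6.66 for C1qb (standard error 2.33) and 5.36 for C1qc (2.29), each with an adjusted p of 0.603 by edgeR. These were 2 of 4 genes at an unadjusted p under 0.05, against 8.22% of all genes in that fit, and 0 of 4 passed the threshold, against 0%. Both rest on 5 counts in the Eµ-TCL1 mouse. Without Eµ-PRMT5 mouse 4 they were 3.45 for C1qb and 3.12 for C1qc. Cd5l had 1.41 (1.46) and Mrc1 -0.95 (1.05) in the same 7 libraries. With NA read as 0, C1qb had 6.35 (3.49) and C1qc 5.05 (3.24), and the count at an unadjusted p under 0.05 did not hold.

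The third comparison sets the Eµ-PRMT5/TCL1 mice against the same Eµ-TCL1 mouse and so shares it with the second. The Eµ-TCL1 mouse was below all Eµ-PRMT5/TCL1 mice for Csf1r, Cd68 and Adgre1, 3 of the 5 genes tested, against 27.6% of all genes. Of the 4 genes tested in 7 libraries it was below them for C1qb, C1qc and Cd5l, against 24.9% of the genes of that fit. C1qa was also below them, on 1 count. Without Eµ-PRMT5/TCL1 mouse 3 it was below the other mice of that genotype for all 5 genes, against 34.7% of all genes. Cd68 averaged 251 ± 95.2 CPM in Eµ-PRMT5/TCL1 mice against 60.8 CPM, or 2.04 on the log2 scale (standard error 0.73, edgeR adjusted p = 0.778). It was the only 1 of the 5 genes at an unadjusted p under 0.05, against 6.09% of all genes. Adgre1 had 1.91 (1.02), Lyz2 1.74 (1.14), Csf1r 1.48 (1.2) and Vcam1 0.15 (0.97), and 0 of 5 passed the threshold, against 0% of all genes. DESeq2 called 0 of the 5 and 16 genes in all, which is 0.121%. The median of the 5 genes was 1.74 and that of all genes -0.073. In 7 libraries C1qb had 4.54 (2.14), C1qc 3.79 (2.15), Cd5l 2.16 (1.5) and Mrc1 -0.58 (1.06), with 0 of 4 past the threshold (0% of genes) and 0 of 4 at an unadjusted p under 0.05, against 7.05% of genes.

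**Figure D3:**
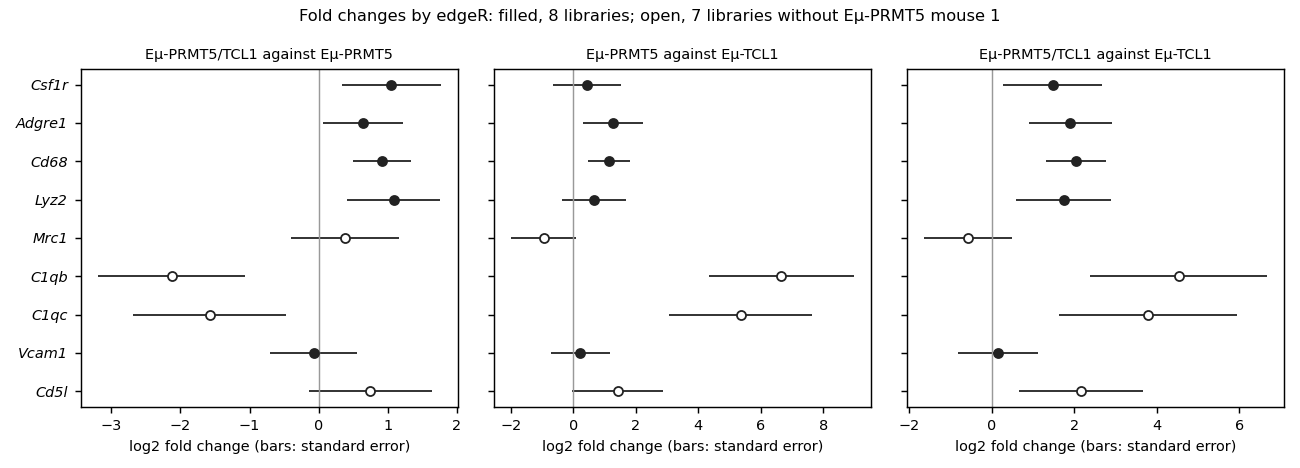
Log2 fold changes of 9 genes (C1qa is left out) in the 3 comparisons, with bars for the standard error from edgeR; filled points come from 8 libraries and open points from the 7 without Eµ-PRMT5 mouse 1. C1qb and C1qc lie at -2.13 and -1.58 in the left panel and at 6.66 and 5.36 in the middle panel, with standard errors of 1.07 to 2.33, and no gene passed the threshold.

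Other genes of CSF1 receptor and myeloid signalling were read from a list of 14, of which 10 were tested, and 0 passed the threshold in any comparison. Eµ-PRMT5/TCL1 mice had higher Csf1, the ligand of the CSF1 receptor, than Eµ-PRMT5 mice in every pair of mice, with 65.4, 69.3 and 31.96 CPM against 9.34, 23.4, 20.1 and 22.7 CPM. Its log2 fold change was 1.55 (standard error 0.43, edgeR adjusted p = 1.00). Spi1, which encodes PU.1 and is also expressed in B cells, had a log2 fold change of 1.21 (0.41), and both genes had an unadjusted p under 0.05. Il34, the other ligand of the receptor, was highest in the Eµ-TCL1 mouse, at 30.01 CPM, and between 7.71 and 9.07 CPM in Eµ-PRMT5/TCL1 mice. The signalling adaptors Tyrobp and Fcer1g were highest in Eµ-PRMT5/TCL1 mouse 1, at 329 and 379 CPM, and second in Eµ-PRMT5 mouse 4, at 212 and 249 CPM, as Csf1r and Lyz2 were.

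Complement genes beyond C1q were read from a list of 19, with 12 tested and 0 past the threshold in any comparison. Of the 19, 8 were highest in Eµ-PRMT5 mouse 4. The share of all genes highest in that mouse was not computed, so the count cannot be read as particular to complement genes. C4b, which the classical pathway cleaves after C1q binds, had no value in Eµ-PRMT5 mouse 1 and measured 2.69, 20.1 and 105 CPM in mice 2 to 4, 31.97, 22.7 and 9.68 CPM in the 3 Eµ-PRMT5/TCL1 mice, with 7.03 CPM for Eµ-TCL1. Like the C1q chains, C4b peaked in Eµ-PRMT5 mouse 4. That mouse was also highest for C1ra (14.6 CPM), which encodes a protease of the C1 complex, and for C2 (24.8 CPM), while C3 was 201 CPM there and 249 CPM in Eµ-PRMT5/TCL1 mouse 1. Cr2, the complement receptor of mature B cells, was 0.346 CPM in Eµ-PRMT5 mouse 4 and 92.6 CPM in mouse 3. Cfp, which encodes properdin, measured 250, 369 and 330 CPM in Eµ-PRMT5/TCL1 mice against 20.7, 27.7, 242 and 84.9 CPM in Eµ-PRMT5 mice, or 1.76 on the log2 scale (standard error 0.68, edgeR adjusted p = 1.00).

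Genes of red pulp macrophages were highest in different mice. The list of red pulp, heme and iron genes held 13, of which 11 were tested and 0 passed the threshold in any comparison. Of the 13, 3 were highest in Eµ-PRMT5 mouse 4, as the C1q chains were (Slc11a1, Axl and Ftl1), 3 in the Eµ-TCL1 mouse, 2 in Eµ-PRMT5 mouse 3 and 2 in Eµ-PRMT5/TCL1 mouse 1, with the other 3 spread over 3 mice. Spic, the transcription factor of red pulp macrophages, measured 38.1 CPM in the Eµ-TCL1 mouse, where C1qa and C1qb were lowest, and between 10.5 and 25.8 CPM in the others. Mertk, a receptor for dying cells, and Timd4, a phosphatidylserine receptor, were also highest in the Eµ-TCL1 mouse, at 28.4 and 21.1 CPM. Cd163, the haptoglobin-hemoglobin receptor, had a value only in Eµ-PRMT5 mice 2 to 4, at 2.37, 13.2 and 2.65 CPM, and was highest in the mouse with the most Vcam1. Siglec1 of marginal metallophilic macrophages was 27.6 CPM in the same mouse and at most 18.4 CPM elsewhere, and of the 4 genes of that list 1 was tested, with 0 past the threshold.

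Among 12 lysosome and phagocytosis genes, all tested, 0 passed the threshold and 6 were highest in Eµ-PRMT5 mouse 4. As above, that count has no share of all genes beside it and cannot be read as particular to these genes. Grn (progranulin), Ctss (cathepsin S) and Lgmn (legumain) were highest in Eµ-PRMT5 mouse 4, at 1005, 1140 and 661 CPM. Apoe, the lipid carrier of macrophages, was lowest in that mouse, at 303 CPM, and 12630 CPM in the Eµ-TCL1 mouse. Macrophage-associated genes thus had no single order over the 8 mice.

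Markers of other cell types did not share 1 order over the mice, and some lists peaked where some of the 10 genes did. Each sum below covers the genes of the list with a value in all 8 mice, which are all genes of the B cell, monocyte and neutrophil lists, 5 of 8 erythroid genes and 5 of 8 T and NK cell genes. The summed level of 10 neutrophil and granulocyte precursor genes, led by Ngp, Mpo and Ltf, was 2671, 2133, 425 and 5306 CPM in Eµ-PRMT5 mice, then 9178, 5121 and 652 CPM in the 3 Eµ-PRMT5/TCL1 mice, with 599 CPM for Eµ-TCL1. Summed monocyte markers were 164, 152, 291 and 774 CPM, then 1284, 478 and 170 CPM, and 180 CPM in the same order. Both lists were highest in Eµ-PRMT5/TCL1 mouse 1, where Csf1r, Cd68 and Lyz2 were highest, and second highest in Eµ-PRMT5 mouse 4. Of the 10 monocyte markers Itgam was at or below 1.89 CPM in every mouse and at 0 in Eµ-PRMT5 mouse 3, while Ly6c2 reached 464 CPM and Cd14 399 CPM in Eµ-PRMT5/TCL1 mouse 1. Erythroid markers summed to 309 CPM in Eµ-PRMT5 mouse 4, between 16.1 and 97.2 CPM in the other Eµ-PRMT5 mice, while Eµ-PRMT5/TCL1 mice 1 to 3 had 314, 85.2 and 51.0 CPM and Eµ-TCL1 21.6 CPM. Summed instead over the genes with a value in each mouse, they were 603 CPM in Eµ-PRMT5 mouse 4 and 344 CPM in Eµ-PRMT5/TCL1 mouse 1. Summed B cell markers were lowest in Eµ-PRMT5 mouse 4, at 2099 CPM, against 3716 to 8964 CPM in the other 7 mice. T and NK cell markers summed to 309 CPM in Eµ-PRMT5 mouse 3 and 53.9 to 110 CPM in the others. The part of these cell types in the levels of the 10 genes was not tested.

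**Figure D4:**
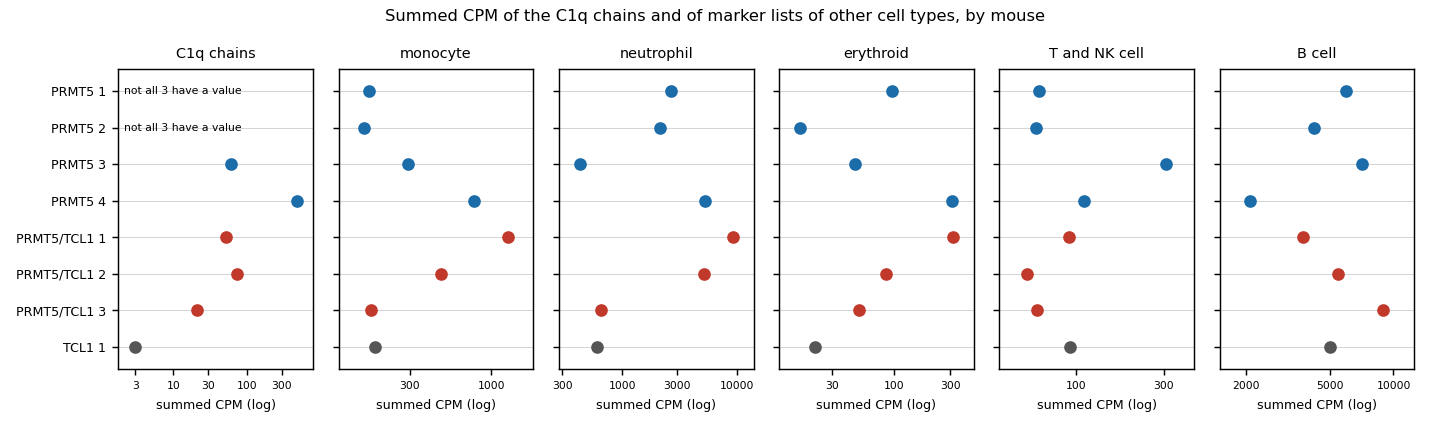
Summed CPM (log axes) of the C1q chains and of marker lists of 5 other cell types in each mouse, over the genes with a value in all 8 mice (the C1q chains: the 6 mice with all 3 values), coloured by genotype (blue Eµ-PRMT5, red Eµ-PRMT5/TCL1, grey Eµ-TCL1). Eµ-PRMT5 mouse 4 has the highest C1q sum and the lowest B cell sum (2099 CPM), Eµ-PRMT5/TCL1 mouse 1 has the highest monocyte and neutrophil sums, and their erythroid sums are 309 and 314 CPM.

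Among those lists and those of dendritic cells (3 of 7 tested) and of endothelium and stroma (1 of 9 tested), 0 genes passed the threshold in any comparison. The 3 dendritic cell markers with all values summed to between 21.7 and 90.6 CPM per mouse, and the 1 endothelial marker with all values, Pecam1, which B cells can also express, measured 29.1 to 186 CPM. Between the replicated genotypes, Cd14 and Mpo were higher in Eµ-PRMT5/TCL1 mice and Cd3d and Cd3e lower at an unadjusted p under 0.05. Those of monocytes and neutrophils had a median log2 fold change of 0.52 and 0.68 there, beside 0.91 for the 5 genes tested and -0.093 over all genes. Other lists differed, with medians of 0.55 for CSF1 receptor and myeloid signalling and 0.22 for complement. The median was -0.47 for red pulp, heme and iron genes and -0.020 for lysosome and phagocytosis genes, and Siglec1 alone had -0.056. Over the 12 lists, 6 of 86 tested genes were higher and 2 lower at that level, which is 9.3%, beside 2.17% of all genes. Against the Eµ-TCL1 mouse, 1 was higher and 1 lower for Eµ-PRMT5 mice, which is 2.33%, beside 6.78%, and 7 were higher and 4 lower for Eµ-PRMT5/TCL1 mice, which is 12.8%, beside 6.09%. None passed the threshold.

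The genes whose log2 CPM followed the mean of the 5 tested genes most closely over the 8 mice were Hk3, Plppr3, Rnpep, Coro1c, Sema4a, Ly6c2, Tyrobp, Atxn1l, Rasa4 and Clec7a. Pearson's r ran from 0.986 for Hk3, a hexokinase of myeloid cells, to 0.938 for Clec7a, which encodes the β-glucan receptor Dectin-1. These values describe 8 libraries that share depth and cell makeup with the 5 genes, and all 10 genes were highest in Eµ-PRMT5/TCL1 mouse 1. Ly6c2 is on the monocyte list, and exons of Plppr3 overlap those of the neutrophil gene Prtn3 on the opposite strand.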

How the data were processed

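Bulk RNA-seq was made from splenic B cells of 8 mice. The values the authors deposited are raw counts for each symbol and mouse, neither normalized nor pooled, and the labels' processing notes name featureCounts of Subread, GRCm38 and DESeq2 1.20.0. The methods describe low-input preamplification and the CLEAR workflow, while the labels name another library kit; the aligner, the use of strand and the meaning of NA are not given in the sources used here. Totals per mouse ran from 3356297 to 10252426, so counting error is small for Lyz2 and large for genes with few counts. Groups follow the labelled genotypes, and p-values set the difference between groups against the spread between mice of the replicated groups.

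Symbols lacking a value in any library were left out, and the other 14072 were filtered by group (13173 genes) and fitted in 1 model of 3 groups with edgeR 4.0.16 in R 4.3.3 (TMM, quasi-likelihood test, Benjamini-Hochberg adjustment). The biological coefficient of variation was 0.483. The threshold was a fold change over 4 together with an adjusted p under 0.05. The spread comes from the replicated groups, and the single Eµ-TCL1 mouse is assumed to vary like them. The code was tested on simulated data. Levels per kb use exon lengths of GENCODE vM21 (GRCm38). Scores over mice used log2 CPM with a prior count of 2. Alternatives were DESeq2 1.42.0, other scalings and filters, NA as 0, only the groups compared, each mouse left out and a replicate block. The 10 genes, the gene lists and the tests were chosen with earlier results of these data known. The rule named all 10 genes, genes of the lists, and the 10 genes most like the tested ones. Some genes of the lists are not reported here. The text also names Hmgxb3 and Gm43109 for their positions. Sums over a list cover the genes with a value in all 8 mice, a choice made after the data were seen. Figures were drawn with matplotlib 3.10.9 in Python 3.11.15, and intervals were computed with scipy 1.17.1.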

Additional observations from a re-analysis of the deposited data

Results flagged for a closer look

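In 17 sets of 4 Eµ-PRMT5 mice, Dixon's test marked 1 mouse as standing apart from the other 3 in 3 sets, where chance gives about 0.85. Mouse 4 had 2865 CPM of Lyz2, where mice 1 to 3 had 897 to 980 CPM. Adgre1 was 72.7 CPM in mouse 2, against 15.0 to 19.7 CPM. Siglec1, the 1 gene of the marginal zone and metallophilic macrophage list with a value in all 8 mice, was 27.6 CPM in mouse 3, against 6.70 to 9.34 CPM. Summed over the genes with a value in each mouse, which are then different genes from mouse to mouse, the test also marked the T and NK cell list in mouse 3 (383 CPM) and the erythroid list in mouse 4 (603 CPM). Over the genes with all values these were 309 CPM each and were not marked. Groups of 3 mice cannot be read this way, and neither can genes without a value in all 4 mice, such as the C1q chains.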

How the results depend on the processing

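None of the 284 alternative values for the 9 genes tested passed the threshold, and the smallest adjusted p was 0.1732 with edgeR and 0.1815 with DESeq2. Of these values 268 kept their direction and 16 reversed. DESeq2 called 4 genes in all for Eµ-PRMT5/TCL1 against Eµ-PRMT5, 18 for Eµ-PRMT5 against Eµ-TCL1 and 16 for Eµ-PRMT5/TCL1 against Eµ-TCL1, where edgeR called 0 and had 286, 893 and 802 genes at an unadjusted p under 0.05, and the cause was not tested. Of the 5 genes with all values, 0, 0 and 2 had an unadjusted p under 0.05 by DESeq2, against 0, 0 and 1 by edgeR. Scaling by library size only moved the median gene by -0.25 and -0.23 (log2) in the comparisons with the Eµ-TCL1 mouse, and Vcam1 went from 0.15 to -0.076 for Eµ-PRMT5/TCL1 against Eµ-TCL1. Leaving out 1 mouse at a time, log2 fold changes of Eµ-PRMT5/TCL1 against Eµ-PRMT5 ran from -0.55 to 0.37 for Vcam1, -0.019 to 1.68 for Lyz2, -0.59 to 1.82 for Mrc1, -2.70 to 1.06 for C1qb and -2.16 to 0.64 for C1qc. Those of Eµ-PRMT5 against Eµ-TCL1 ran from -0.16 to 0.57 for Vcam1, -0.28 to 0.88 for Csf1r and -0.17 to 1.93 for Cd5l, and those of Eµ-PRMT5/TCL1 against Eµ-TCL1 from -0.33 to 0.58 for Vcam1. The count of the 5 genes whose groups did not overlap ran from 0 to 1 for Eµ-PRMT5/TCL1 against Eµ-PRMT5. With all mice it was 0, where 1.35% of all genes had Eµ-PRMT5/TCL1 higher and 1.59% lower. It was 1 without Eµ-PRMT5/TCL1 mouse 3 (4.06% of all genes higher) and without Eµ-PRMT5 mouse 2 (2.46%). The count with the Eµ-TCL1 mouse outside the Eµ-PRMT5/TCL1 range ran from 3 to 5. With all mice it was 3, where that mouse was below for 27.6% of all genes. Without Eµ-PRMT5/TCL1 mouse 3 it was 5, against 34.7%. Without the length of the genes, C1q shares of CPM in Eµ-PRMT5/TCL1 mice were 9.74% for C1qa, 57.4% for C1qb and 32.8% for C1qc, and C1qc held 30.8% in Eµ-PRMT5 mice. Same-numbered mice deviated with correlations of -0.021, 0.15 and 0.16, and differently numbered mice with correlations between -0.10 and 0.11. So few values do not decide whether the numbers pair mice. With the replicate block on mice 1 to 3, 0 genes passed the threshold and 826 had an unadjusted p under 0.05, against 742 in the same mice without the block. Vcam1 was 0.24 with the block and 0.11 without it, 2 of the 5 genes had an unadjusted p under 0.05 with the block and 3 without it, and the pairing ended no call. Low counts limit C1q in the Eµ-TCL1 mouse, and missing values limit 5 of the 10 genes.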
